A study of Mus musculus with 12 samples.

Results

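The stretch of mouse chromosome 8 from Heatr3 to Ndrg4 holds 45 genes with a mean of at least 10 CPM (counts scaled to the library total) over the 12 libraries. The count table holds 55416 genes, of which 9632 reached that level, 538 of them on chromosome 8. The stretch was chosen because its genes were higher in cells labelled as Mapk14 knockout than in wild-type cells in both media, so every such ratio given for it is a description with no test. In the gene order of the GENCODE M21 annotation, whose build is GRCm38, 183 genes start in the stretch of 7.54 Mb and 177 of them are in the table. Of these, 72 had 0 counts in all libraries and 60 had counts under the minimum. All 45 measured genes are protein coding, with 30 on the plus strand and 15 on the minus strand.

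The cells were C2C12, a mouse line of skeletal muscle myoblasts, and their RNA was sequenced after 5 days in either of 2 media. The 4 groups of 3 libraries were Mapk14-knockout-labelled cells in growth medium (KO GM), wild-type cells in growth medium (WT GM), Mapk14-knockout-labelled cells in differentiation medium (KO DM) and wild-type cells in differentiation medium (WT DM). Growth medium contained fetal bovine serum, and differentiation medium contained a lower amount of horse serum. The labels name the libraries of a group as biological replicates and give the same batch date for all of them. The number of edited clones and the editing method are not stated in the labels.

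Mapk14 encodes p38 alpha, a stress-activated kinase that promotes the myogenic programme. Cultured cell lines such as C2C12 can gain or lose pieces of chromosomes, and genes on a gained piece often give more RNA together because each has more templates. DNA copy number was not measured in these data, and its part in the values below was not tested.

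Mapk14 RNA did not pass the test for a difference between KO-labelled and WT libraries in either medium. It averaged 134 ± 3.58 CPM in KO GM and 124 ± 14.01 CPM in WT GM (SD, n = 3 each), a log2 ratio of 0.11 ± 0.08 (SE, edgeR's quasi-likelihood test, adjusted p = 0.35). In DM it averaged 89.4 ± 4.67 CPM in KO and 91.2 ± 2.59 CPM in WT, a log2 ratio of -0.03 ± 0.08 (edgeR, adjusted p = 0.822). The RNA counts therefore do not separate the genotypes at the edited gene, and KO is used below as the name on the libraries. CPM values of single libraries are scaled by edgeR's TMM factors. Totals ran from 8821669 to 11536396 counts per library. All 8 myoblast and muscle markers had counts, with a summed level of 601 to 712 CPM in KO GM, against 1780 to 2040 CPM in WT GM, and of 1690 to 1920 CPM in KO DM, against 4270 to 4380 CPM in WT DM. The mean was lower in KO for 7 of the 8 in GM and for 8 of 8 in DM, so the muscle programme moves with the label and its part in the ratios of the stretch was not tested. Ptprc and Adgre1 (leukocytes), Epcam and Krt18 (epithelium), Emcn (endothelium) and Sox10 and Elavl4 (neural and Schwann cells) were at 0 in all 12 libraries. The summed level of 6 leukocyte markers was 32.4 to 40.1 CPM in KO DM, against 19 to 22.2 CPM in WT DM, with 3 of the 6 higher and 1 lower in mean, and its part was not tested either. Of the 3 fibroblast markers, Dcn averaged 0.240 ± 0.125 CPM in KO GM and 15.9 ± 5.03 CPM in WT GM, and 5.13 ± 1.10 CPM in KO DM and 36.4 ± 1.91 CPM in WT DM. Pdgfra averaged 77.4 ± 1.66 CPM in KO DM and 54.9 ± 4.76 CPM in WT DM, and Lum was at or near 0. The fibroblast sum was 87.7 to 109 CPM in KO GM, against 99.2 to 118 CPM in WT GM, and 79.8 to 85.2 CPM in KO DM, against 86.7 to 99.1 CPM in WT DM, and its part was not tested. The 5 neural and Schwann cell markers, nearly all of it Tubb3, summed to 14.5 to 18.5 CPM in KO GM, against 45.1 to 54.6 CPM in WT GM, and to 6.31 to 7.28 CPM in KO DM, against 50.1 to 50.6 CPM in WT DM. In bulk RNA, fewer cells of a type and less RNA per cell cannot be told apart.

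Along the stretch the median gene had about 1.5 times the level in the KO-labelled libraries that it had in the WT libraries, in both media. The median log2 KO/WT ratio over the 45 genes was 0.58 in GM (a fold of 1.5, interquartile range 0.40 to 0.84). It was 0.64 in DM (a fold of 1.55, interquartile range 0.50 to 0.82). Over all 13250 genes tested the medians were -0.01 in GM and -0.02 in DM, with interquartile ranges of -0.18 to 0.17 and -0.23 to 0.20. Over the 493 other chromosome 8 genes of mean CPM at least 10 they were 0.05 and 0.09.

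Each KO library showed the same displacement. Taking the median over the 45 genes of the log2 CPM minus its WT mean, the KO GM libraries stood at 0.58, 0.59 and 0.56, against -0.04, 0.04 and 0.04 for the WT GM libraries. The KO DM libraries stood at 0.63, 0.64 and 0.62, against -0.02, -0.02 and 0.03 for the WT DM libraries. No KO library came near a WT library on this measure. The 45 genes were chosen on ratios of these same libraries, so this separation is a description and no test. The same median over all genes lay between -0.03 and 0.01 in every library.

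**Figure D1:**
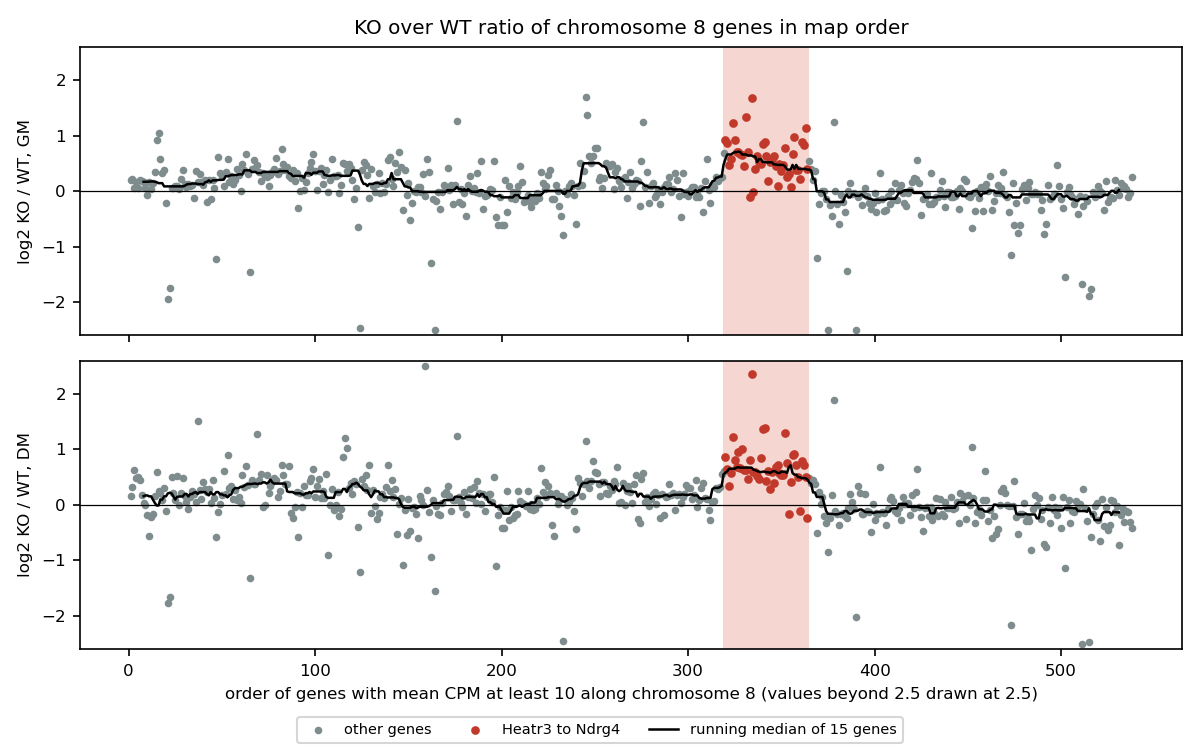
Log2 KO/WT ratio of each chromosome 8 gene of mean CPM at least 10 in GM (top) and DM (bottom), in map order, with the running median of 15 genes as a line and the 45 genes from Heatr3 to Ndrg4 shaded. In the shaded stretch the running median lies between 0.39 and 0.71 in GM and between 0.46 and 0.71 in DM, and from 30 genes after it to the chromosome's end it is at most 0.02 in GM and 0.09 in DM.

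The running median over 15 neighbouring genes was high over the whole stretch. Centred in the stretch, it lay between 0.39 and 0.71 in GM and between 0.46 and 0.71 in DM. From 30 genes after the stretch to the end of the chromosome it reached at most 0.02 in GM and 0.09 in DM. From the first gene to 30 genes before the stretch it reached 0.51 in GM, at Tmem184c, and 0.46 in DM, at Nsd3. Chromosome 8 therefore had other runs of raised ratios on the side of its first genes, which reached the lower part of the range seen in the stretch. The medians of the other chromosomes lay between -0.08 and 0.20 in GM and between -0.16 and 0.20 in DM, highest on chromosome 11.

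The named ends of the stretch are not sharp. Before Heatr3, the nearest 5 measured genes had log2 KO/WT ratios in GM and DM of 0.25 and 0.31 (Phkb), 0.18 and 0.28 (Lonp2), 0.24 and 0.32 (Siah1a), 0.27 and 0.55 (N4bp1), and 0.69 and 0.61 (Cnep1r1). Cnep1r1, a partner of a nuclear envelope phosphatase, averaged 149 ± 7.15 CPM in KO GM and 92.4 ± 1.95 CPM in WT GM (SD, n = 3 each), so it stood as high as the stretch. After Ndrg4, the ratios in GM and DM were 0.54 and 0.48 for Setd6, 0.40 and 0.40 for Cnot1, 0.21 and 0.46 for Slc38a7, and 0.37 and 0.38 for Got2. Cnot1, the scaffold of the CCR4-NOT deadenylase complex, averaged 482 ± 14.6 CPM in KO GM and 365 ± 8.51 CPM in WT GM, and 439 ± 30.6 CPM in KO DM and 332 ± 17.4 CPM in WT DM. The run of raised neighbours stopped at Cdh11, a cadherin, with -1.21 ± 0.13 in GM and -0.50 ± 0.11 in DM (SE). Farther out, Ces2g, a carboxylesterase, was the highest of the 20 genes after the stretch, at 1.25 ± 0.13 in GM and 1.9 ± 0.13 in DM. It averaged 60.6 ± 11.02 CPM in KO GM and 25.6 ± 2.23 CPM in WT GM, and 124 ± 5.68 CPM in KO DM and 33.3 ± 5.93 CPM in WT DM. Over the 20 measured genes on each side, the medians before the stretch were 0.07 in GM and 0.23 in DM, and those after it were -0.10 and -0.13.

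Of the genes of the stretch below the expression minimum, 9 passed edgeR's filter. A gene near the filter's limit can pass through a single group, also one where it is high, so nothing is read from their direction. Their median log2 KO/WT ratio was 0.78 in GM and 0.96 in DM, and 7 of the 9 were above 0 in each medium. Ces1g had -1.98 ± 0.575 in GM and 0.653 ± 0.505 in DM (SE). The nearest below the minimum were Crnde (mean 7.59 CPM, ratios 1.34 and 0.96), Nlrc5 (6.98 CPM, 1.23 and 2.27), which activates MHC class I genes, and Gm45774 (1.32 CPM, 0.53 and 1.00). The nearest above it were Gins3 (mean 23.0 CPM, ratios 1.14 and 0.50), Irx5 (25.7 CPM, 0.71 and 0.47) and Nod2 (32.5 CPM, 1.22 and 1.23).

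**Figure D2:**
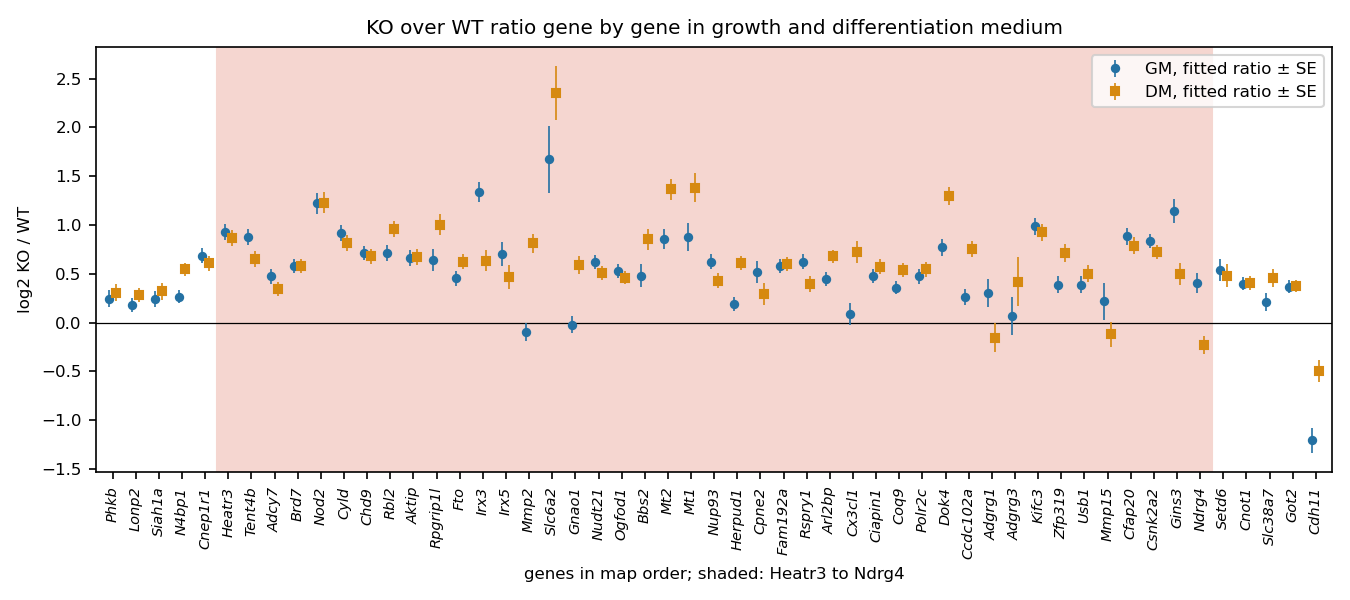
Fitted log2 KO/WT ratio ± SE of 43 of the 45 genes (shaded) and the 5 nearest measured genes on each side in map order, in GM (circles) and DM (squares). The interquartile range of the 45 genes is 0.40 to 0.84 in GM and 0.50 to 0.82 in DM, Slc6a2 lies highest at 1.67 and 2.35, and Mmp2, Gnao1 and Cx3cl1 lie near 0 in GM only.

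Gene by gene, 43 of the 45 ratios were above 0 in GM and 42 of 45 in DM, and 40 were above 0 in both, against 30.3% of all genes tested. The values of all 3 KO libraries exceeded those of all 3 WT libraries for 39 of 45 genes in GM (15.8% of all genes tested) and for 42 of 45 in DM (21.3%). For 38 genes this held in both media (7.56% of all genes tested). Since the stretch was picked on these ratios, nothing is read from these counts. Across the 45 genes, the GM and the DM ratios, which come from separate libraries, had a Spearman correlation of 0.49. Both ratios served to choose the stretch, so nothing is read from this value either. The ratio had Spearman correlations to log2 mean CPM of -0.16 in GM and 0.10 in DM.

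Genes of transcription, RNA processing, ribosome supply and the cell cycle all had positive ratios in both media. Heatr3, which helps import a ribosomal protein into the nucleus, had 214, 208 and 169 CPM in KO GM, against 106, 106 and 98.7 CPM in WT GM. It had 176, 170.1 and 169.9 CPM in KO DM, against 100.5, 95.3 and 88.0 CPM in WT DM. The KO libraries lay above the WT libraries in each medium with a wide gap, and the log2 ratios were 0.93 ± 0.08 in GM and 0.86 ± 0.08 in DM (SE). Csnk2a2, a catalytic subunit of casein kinase 2 at the other end of the stretch, had 217, 224 and 194 CPM in KO GM, against 121, 122 and 113 CPM in WT GM. Its values in DM were 166, 164 and 176 CPM in KO, against 101, 100.3 and 106 CPM in WT, and the log2 ratios were 0.84 ± 0.07 and 0.72 ± 0.07. The groups again did not overlap. Rbl2 encodes p130, a pocket protein that represses E2F targets in cells that have left the cycle. It had 154, 149.7 and 176 CPM in KO GM, against 94.5, 93.4 and 105 CPM in WT GM. The DM libraries had 187, 204 and 206 CPM in KO, against 92.5, 108 and 106 CPM in WT. Its ratio was thus higher in DM (0.96 ± 0.08) than in GM (0.71 ± 0.08), by 0.25 ± 0.11.

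Gins3, a subunit of the replicative helicase, went the other way. It had 28.6, 28.3 and 24.5 CPM in KO GM, against 11.4, 11.1 and 14.4 CPM in WT GM. The DM libraries had 30.2, 31.4 and 31.0 CPM in KO, against 20.6, 21.6 and 23.2 CPM in WT. The 2 groups did not overlap in either medium, and the log2 ratio was 1.14 ± 0.12 in GM and 0.50 ± 0.11 in DM, a difference (DM minus GM) of -0.64 ± 0.17. Among the genes of RNA and chromatin, the ratios in GM and DM were 0.88 and 0.65 for Tent4b (a noncanonical poly(A) polymerase), 0.58 and 0.58 for Brd7 (a bromodomain subunit of the PBAF remodeller), and 0.71 and 0.68 for Chd9 (a chromodomain helicase). They were 0.63 and 0.51 for Nudt21, a factor of pre-mRNA 3' end cleavage, and 0.47 and 0.55 for Polr2c, a subunit of RNA polymerase II. Nup93, a scaffold protein of the nuclear pore, had 0.63 and 0.43. All these genes had KO libraries above WT libraries in both media.

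Cyld, a deubiquitinase that restrains NF-kB signalling, had 269.7, 239.7 and 255 CPM in KO GM, against 118, 139 and 149 CPM in WT GM. Its values in DM were 274, 293 and 294 CPM in KO, against 158, 171 and 159.9 CPM in WT. Its ratios of 0.92 ± 0.08 and 0.82 ± 0.08 were above the median of the stretch in each medium. Its neighbour Nod2, a cytosolic sensor of bacterial cell wall fragments, had 46.9, 52.6 and 49.8 CPM in KO GM, against 23.0, 22.5 and 18.6 CPM in WT GM. The DM libraries had 40.9, 42.6 and 39.7 CPM in KO, against 16.2, 19.4 and 16.9 CPM in WT. The KO libraries stood far above the WT libraries in each medium, with log2 ratios of 1.22 ± 0.10 and 1.23 ± 0.11. Herpud1, a stress-induced factor of protein degradation at the endoplasmic reticulum, had 188, 179 and 202 CPM in KO GM, against 155, 168 and 175 CPM in WT GM. In DM it had 336, 321 and 333 CPM in KO, against 210, 213 and 225 CPM in WT. The groups stood only just apart in GM (0.19 ± 0.07) and far apart in DM (0.61 ± 0.07).

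Fto, an RNA demethylase, had 232, 266 and 283 CPM in KO GM, against 179, 191 and 201 CPM in WT GM. Its values in DM were 378, 368 and 370.2 CPM in KO, against 231, 239 and 254 CPM in WT, and the log2 ratios were 0.45 ± 0.08 and 0.63 ± 0.08. Irx3, a homeobox transcription factor encoded beyond Fto, had 95.9, 122 and 114 CPM in KO GM, against 44.9, 47.9 and 38.2 CPM in WT GM. The DM values were 75.9, 59.9 and 64.9 CPM in KO, against 44.8, 42.6 and 41.8 CPM in WT. The WT level of Irx3 was alike in the 2 media and the KO level was higher in GM, so the ratio was 1.34 ± 0.10 in GM and 0.64 ± 0.11 in DM. That difference of -0.70 ± 0.15 was the most negative of the 45. Irx5, a homeobox gene of the same cluster, had ratios of 0.71 ± 0.12 and 0.47 ± 0.12.

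The metallothioneins Mt1 and Mt2 encode small proteins that bind zinc and copper, and their genes are induced by metals through metal response elements. They had among the highest ratios of the stretch, and their upstream sequence is shown because both genes moved together between the genotypes and between the media. The 250 bases before each RefSeq gene start (GRCm38.p6, plus strand, 5' to 3') are given below, with matches to the core of the metal response element, TGCACNC or TGCGCNC on either strand, in capitals. They lie at chr8:94178839-94179088 for Mt1 and at chr8:94172368-94172617 for Mt2.
Mt1 promoter: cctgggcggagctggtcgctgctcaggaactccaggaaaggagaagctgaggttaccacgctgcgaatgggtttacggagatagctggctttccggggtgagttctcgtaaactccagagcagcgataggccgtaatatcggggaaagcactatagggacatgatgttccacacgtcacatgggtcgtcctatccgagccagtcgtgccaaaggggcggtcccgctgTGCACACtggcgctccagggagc
Mt2 promoter: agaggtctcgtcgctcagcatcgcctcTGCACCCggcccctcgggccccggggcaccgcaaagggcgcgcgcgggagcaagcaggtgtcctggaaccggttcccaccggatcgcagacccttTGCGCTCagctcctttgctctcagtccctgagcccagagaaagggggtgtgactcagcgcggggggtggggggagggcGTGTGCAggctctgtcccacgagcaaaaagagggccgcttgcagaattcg
The Mt1 sequence holds 1 match and the Mt2 sequence 3. The 2 patterns differ in 1 letter, so no site on a strand matched both. In the 300-base windows of the RefSeq table, which run on past the gene start, Mt1 has 3 matches and Mt2 has 4. The counts thus depend on where the RefSeq start is placed, so they are not compared between the genes. Whether transcription begins at that start was not tested. Of 32851 such windows, 25.7% hold at least 1 match, 1.97% at least 3 and 0.517% at least 4. A match is a string of letters and no measured binding site.

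Mt1 had 569, 641 and 687 CPM in KO GM, against 381, 279.7 and 371 CPM in WT GM. The DM values were 384, 337 and 265 CPM in KO, against 137, 127 and 114 CPM in WT. Mt2 had 489, 546 and 602 CPM in KO GM, against 287, 261 and 356 CPM in WT GM, and 251, 222 and 207 CPM in KO DM, against 91.3, 83.7 and 88.5 CPM in WT DM. For both genes the KO libraries lay above the WT libraries in each medium, and the KO DM level came down to about that of WT GM or below it. The log2 KO/WT ratios were 0.88 ± 0.15 in GM and 1.38 ± 0.15 in DM for Mt1, and 0.86 ± 0.10 and 1.37 ± 0.11 for Mt2. Mt1 and Mt2 are close paralogs, so their separate values depend on how the authors assigned shared reads.

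Genes of the cell surface, of secreted products and of the matrix included the highest ratio and several near 0. Slc6a2, the noradrenaline transporter, had the highest ratios of the 45. It had 17.0, 15.1 and 29.4 CPM in KO GM, against 4.21, 7.41 and 7.68 CPM in WT GM, and 91.5, 101 and 106 CPM in KO DM, against 14.3, 18.8 and 24.9 CPM in WT DM. The log2 ratios were 1.67 ± 0.34 and 2.35 ± 0.27, and the KO libraries were well clear of the WT libraries in both media.

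Mmp2, gelatinase A, which degrades collagen, was the member whose ratio differed most with the medium. It had 1047, 1059 and 1438 CPM in KO GM, against 1178, 1291 and 1324 CPM in WT GM, where the groups overlapped. In DM it had 2394, 2300 and 2266 CPM in KO, against 1294, 1267 and 1406 CPM in WT, with no overlap. The ratio was -0.10 ± 0.10 in GM and 0.81 ± 0.10 in DM, a difference of 0.91 ± 0.14. The ratios of Cx3cl1 (fractalkine, a chemokine) and Gnao1 (a G protein alpha subunit) were likewise near 0 in GM and raised in DM. For these genes the WT level was lower in DM, whereas for Mmp2 the KO level was higher in DM. Gnao1 had 226, 260.1 and 309.9 CPM in KO GM, against 265, 267 and 276 CPM in WT GM, and 271, 289.8 and 250.1 CPM in KO DM, against 181, 181 and 178 CPM in WT DM. Cx3cl1 had 120.3, 134 and 139 CPM in KO GM, against 136, 139.7 and 95.1 CPM in WT GM, and 122, 109 and 115 CPM in KO DM, against 65.7, 72.2 and 71.0 CPM in WT DM. In each case GM overlapped and DM did not, with ratios of -0.02 ± 0.09 and 0.59 ± 0.09 for Gnao1 and 0.09 ± 0.11 and 0.73 ± 0.11 for Cx3cl1. These differences between the media were not tested, because both ratios served to choose the stretch.

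Mmp15, a membrane-bound matrix metalloproteinase, did not follow the genotype. It had 8.26, 5.63 and 10.5 CPM in KO GM, against 5.24, 7.84 and 7.78 CPM in WT GM, and 61.7, 59.4 and 58.5 CPM in KO DM, against 64.7, 60.0 and 70.3 CPM in WT DM. The groups overlapped in both media, with ratios of 0.22 ± 0.19 and -0.12 ± 0.13. The adhesion G protein-coupled receptor Adgrg1 also overlapped in both media (0.31 ± 0.14 and -0.16 ± 0.15). The related Adgrg3 overlapped in GM, with 105, 112 and 80.4 CPM in KO against 109, 105 and 68.9 CPM in WT. In DM it had 23.1, 20.7 and 17.7 CPM in KO, against 11.6, 16.4 and 17.6 CPM in WT, so that the KO libraries lay above by a narrow margin (0.42 ± 0.25). Dok4, a docking protein of receptor tyrosine kinases, had ratios of 0.77 ± 0.09 in GM and 1.3 ± 0.09 in DM, and Adcy7, an adenylyl cyclase, had 0.48 ± 0.08 and 0.34 ± 0.07.

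Ndrg4, a cytoplasmic protein of the NDRG family and the last gene of the stretch, was the one gene with the KO libraries all below the WT libraries in a medium, which in DM held for 26.2% of all genes tested. It had 51.3, 55.4 and 62.5 CPM in KO GM, against 36.9, 41.4 and 49.5 CPM in WT GM, and 76.8, 72.2 and 75.6 CPM in KO DM, against 80.6, 87.8 and 94.8 CPM in WT DM. The ratio was 0.41 ± 0.10 in GM and -0.23 ± 0.10 in DM, so the KO libraries were above in GM and below in DM. The 4 lowest means of the 2 ratios were those of Mmp15, Adgrg1, Ndrg4 and Adgrg3, and the 4 highest those of Slc6a2, Nod2, Mt1 and Mt2.

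Genes of microtubules and cilia had positive ratios in both media. Kifc3, a minus-end-directed kinesin, had ratios of 0.99 ± 0.08 in GM and 0.93 ± 0.08 in DM. Cfap20, a protein of cilia, had 0.88 and 0.79. Rpgrip1l, of the ciliary transition zone, had 0.64 and 1.00, Bbs2, of the BBSome, 0.48 and 0.85, and Arl2bp, a binding partner of a small GTPase, 0.45 and 0.68. The ratios of the last 3 were higher in DM, by 0.36 ± 0.15, 0.37 ± 0.16 and 0.23 ± 0.10. Of the mitochondrial and iron-sulfur genes, Coq9, needed for coenzyme Q synthesis, had 0.36 and 0.54, and Ciapin1 had 0.48 and 0.58.

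**Figure D3:**
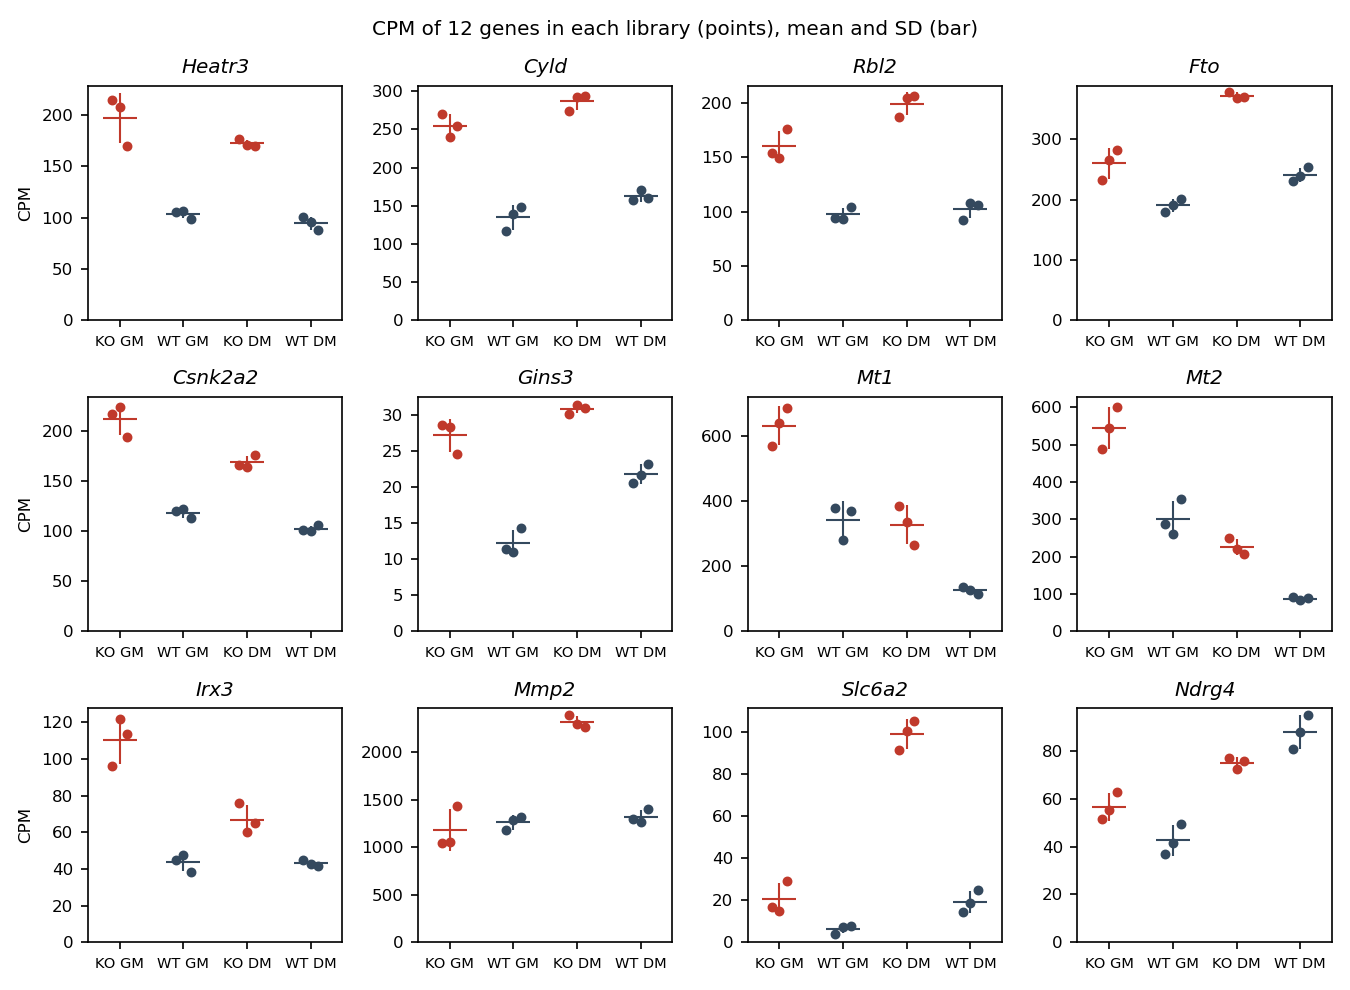
TMM-scaled CPM of 12 genes of the stretch in each library (points) with the mean and SD of 3 libraries (bars), KO in red left of WT in dark blue for each medium. The KO libraries lie above the WT libraries in both media for Heatr3, Cyld, Rbl2, Fto, Csnk2a2, Gins3, Mt1, Mt2, Irx3 and Slc6a2, whereas Mmp2 overlaps in GM and Ndrg4 is below WT in DM.

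Some neighbours share more than position. 5 pairs of measured genes start within 1000 bases of each other on opposite strands, namely Nudt21 with Ogfod1, Fam192a with Rspry1, Ciapin1 with Coq9, Rpgrip1l with Fto, and Zfp319 with Usb1. Their KO/WT ratios in GM were 0.63 and 0.53, 0.58 and 0.63, 0.48 and 0.36, 0.64 and 0.45, and 0.39 and 0.39. In DM they were less alike in some pairs, at 0.51 and 0.46, 0.60 and 0.395, 0.575 and 0.54, 1.00 and 0.625, and 0.71 and 0.50. In the annotation, 12 of the 45 genes overlap another gene of mean CPM at least 1. Rbl2 and Aktip overlap by 12061 bases on opposite strands, and Polr2c and Dok4 by 9708. Whether the counting used strand is not known here, so reads from such overlaps cannot be told apart.

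The response to differentiation medium, on which the stretch was not chosen, showed no common direction. In KO-labelled cells, 15 of 45 genes rose (33.3%, against 20.8% of all genes tested) and 14 fell (31.1%, against 19.8%) in DM relative to GM. In WT cells, 12 rose (26.7%, against 18.4%) and 13 fell (28.9%, against 14.8%). Among all genes of mean CPM at least 10, which is the minimum the 45 had to pass, the shares were 21.4% and 23.6% in KO and 19.1% and 17.4% in WT. The median log2 change was 0.07 in KO and -0.06 in WT, where over all genes tested it was -0.001 in KO and -0.008 in WT. In both genotypes 8 genes rose (12.1% of all genes tested) and 7 fell (9.75%), and no gene rose in one genotype and fell in the other. Further, 14 genes were called in KO and not in WT, 10 in WT and not in KO, and 6 in neither. The matching shares of all genes tested were not computed, so nothing is read from this split. A call was an adjusted p (edgeR's quasi-likelihood test, Benjamini-Hochberg over 13250 genes) under 0.05.

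Mmp15 had the largest log2 change with DM in each genotype, 2.88 ± 0.15 in KO and 3.22 ± 0.16 in WT (SE). It averaged 8.11 CPM in KO GM and 6.95 CPM in WT GM, so it reached the minimum of 10 CPM only through its DM libraries. Its rise, counted among the rises above, is therefore a description. Slc6a2 rose by 2.27 ± 0.27 in KO (edgeR, adjusted p = 1.09e-04) and by 1.59 ± 0.35 in WT (adjusted p = 0.00622). Ndrg4 rose by 0.41 ± 0.10 in KO (adjusted p = 0.00193) and by 1.04 ± 0.10 in WT (adjusted p = 3.41e-08). Herpud1, Fto and Adcy7 rose in both genotypes too, Herpud1 by 0.80 ± 0.07 in KO and 0.38 ± 0.07 in WT. Adgrg3 fell most, with a log2 change of -2.27 ± 0.22 in KO (adjusted p = 1.31e-05) and of -2.62 ± 0.23 in WT (adjusted p = 8.12e-06). The metallothioneins fell in both genotypes, Mt2 with -1.27 ± 0.10 in KO (adjusted p = 8.81e-09) and -1.78 ± 0.11 in WT (adjusted p = 1.66e-10). Mt1 had -0.94 ± 0.15 in KO (adjusted p = 2.05e-04) and -1.45 ± 0.15 in WT (adjusted p = 9.01e-06). Cpne2, a calcium-dependent membrane-binding protein, and Kifc3 also fell in both.

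Other genes passed the test in one genotype. Mmp2 rose with DM in KO, by 0.97 ± 0.10 (edgeR, adjusted p = 1.03e-07), and its change in WT was 0.07 ± 0.10 (adjusted p = 0.647). Rpgrip1l rose by 0.56 ± 0.10 in KO (adjusted p = 1.66e-04), with 0.20 ± 0.11 in WT (adjusted p = 0.191). Rbl2 rose by 0.32 ± 0.08 in KO (adjusted p = 0.00286), with 0.07 ± 0.08 in WT (adjusted p = 0.566). Irx3 fell by 0.72 ± 0.10 in KO (adjusted p = 4.6e-06), with -0.02 ± 0.11 in WT (adjusted p = 0.906). The change of Gins3 was 0.18 ± 0.11 in KO (adjusted p = 0.198), and it rose in WT, by 0.83 ± 0.12 (adjusted p = 1.53e-05). The change of Cx3cl1 was -0.19 ± 0.11 in KO (adjusted p = 0.197), and it fell in WT (-0.83 ± 0.11, adjusted p = 1.69e-05). For Gnao1 the change was 0.03 ± 0.09 in KO (adjusted p = 0.854), and it fell in WT (-0.58 ± 0.09, adjusted p = 2.29e-05). Whether the 2 genotypes differed in these responses was not tested, since that difference is built from the ratios that chose the stretch.

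**Figure D4:**
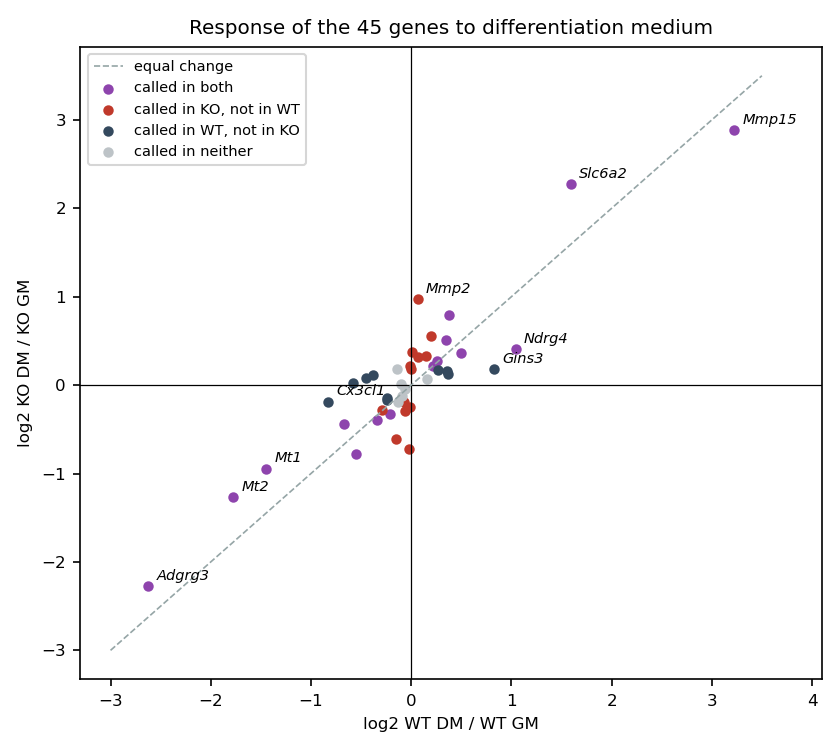
Log2 change with DM in KO-labelled cells (vertical) against that in WT cells (horizontal) for the 45 genes, coloured by whether the change passed an adjusted p of 0.05 in both genotypes, in one or in neither, with a dashed line of equal change. Mmp15 and Slc6a2 lie at the upper right, Adgrg3, Mt1 and Mt2 at the lower left, and Mmp2, at 0.97 in KO and 0.07 in WT, lies above the line.

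Not all calls rested on every library. When each library was left out in turn, 11 of the 15 rises and 10 of the 14 falls in KO and 8 of the 12 rises and 10 of the 13 falls in WT passed each time. In WT, Aktip, Brd7, Cyld, Irx5, Polr2c and Csnk2a2 missed the threshold without WT GM replicate 1 (edgeR, adjusted p = 0.12, 0.0834, 0.133, 0.167, 0.122 and 0.0783), and Ciapin1 without WT GM replicate 2 (0.051). Brd7 and Csnk2a2 also missed it without WT GM replicate 2 (0.105 and 0.0891), and some of these 7 genes without WT DM replicate 1, 2 or 3, at adjusted p of at most 0.101. Without WT GM replicate 1 the change of Cyld was 0.18, against 0.27 with all libraries. In KO, Arl2bp, Brd7, Nod2, Nudt21, Ogfod1 and Rspry1 missed it without KO GM replicate 2 (adjusted p = 0.0536, 0.0509, 0.127, 0.068, 0.17 and 0.079), and Bbs2 without KO DM replicate 3 (0.06). Nod2, Nudt21, Ogfod1 and Rspry1 also missed it without other KO libraries, at adjusted p of at most 0.203. Nudt21 and Ogfod1 further missed it without single WT libraries, at adjusted p of at most 0.0971. With all libraries kept, both missed it under each of 3 other scalings, without a filter on low counts and in the fit of 6 libraries (adjusted p of 0.0522 to 0.148), and Ogfod1 also with DESeq2 (0.0678). Heatr3 was not called in KO (-0.19 ± 0.08, adjusted p = 0.0581) and was called without KO GM replicate 3 (-0.29, adjusted p = 0.00307). In KO, Cyld was called without WT GM replicate 1 or 3 (adjusted p = 0.0361 and 0.0296), Nup93 without WT GM replicate 3 or KO DM replicate 3 (0.0314 and 0.0374), and Zfp319 without KO GM replicate 3 or WT GM replicate 3 (0.0481 and 0.0407). Nod2 was called in WT without KO GM replicate 1 or 3, WT GM replicate 3 or WT DM replicate 2, at adjusted p of at most 0.0488.

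The GM replicate 3 libraries stood apart on some muscle genes, in mixed directions. Both had the highest Myog, Mymk, Des, Chrna1 and Myf5 of their groups, with Myog at 45.9 CPM in KO against 31.3 and 16.8 CPM in the other KO GM libraries, and at 219.5 CPM in WT against 127 and 143 CPM in the other WT GM libraries. Cdh2 was lowest in both, and Myod1 and Cdh15 were lowest in WT GM replicate 3, with Myod1 at 111 CPM against 137 and 135 CPM in the other WT GM libraries. Without both of them the median log2 KO/WT ratio of the 45 genes was 0.57 in GM. The counts of rises and falls were then 18 and 15 in KO and 12 and 15 in WT. Calls over all genes grew too. They were 3264 rises and 2743 falls in KO and 2837 and 2487 in WT, of 13446 genes. With all libraries they were 2754 and 2627 in KO and 2442 and 1963 in WT, of 13250 genes.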

How the data were processed

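The input was the count table that the authors deposited: unnormalized integer counts for each Ensembl identifier in the 12 libraries, beside 4 empty columns. The submitters' processing notes list the build GRCm39 and the tools DESeq2 1.40.2, R 4.3.1, RSEM 1.3.3 and STAR 2.7.1a. Which of them produced the counts is not given in the sources used here, nor is the annotation or whether strand was used. Labels give biological replicates and do not say whether these came from separate cultures, so p-values measure the spread between these libraries. Totals were 8821669 to 11536396 counts, which limits the precision of genes with few counts.

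Gene symbols and gene order came from GENCODE M21 (GRCm38), which matched 52083 of 55416 identifiers and 99.2% of counts. No GRCm39 annotation was used, so no coordinates are given beyond those of the Mt1 and Mt2 promoter sequences. Promoter sequences are RefSeq's, from GRCm38.p6.

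The analysis used edgeR 4.0.16 under R 4.3.3. The filter filterByExpr kept 13250 genes, libraries were scaled by TMM, and 1 robust quasi-likelihood model with a mean per group was fitted to all 12 libraries. Tests were 2-sided, with Benjamini-Hochberg adjustment over the genes tested. The SE is the log2 change divided by the square root of F. CPM per library are TMM-scaled. The code was tested on simulated data. Alternatives were 3 other scalings, other filters, DESeq2 1.42.0, limma-voom (limma 3.58.1), non-robust dispersion, 6-library fits, a replicate block, each library left out in turn, and other CPM minimums for the stretch.

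The 45 genes, the marker lists and the genes named were chosen with earlier results of these data known. Genes named with values are the ends of the stretch and the 5 nearest genes outside, the 4 highest and 4 lowest mean ratios, the 5 largest rises and falls per medium contrast, a panel by role, and the 3 genes on each side of the CPM minimum. Beyond this rule, Gnao1, Aktip, Ogfod1, Rspry1, Fam192a, Zfp319, Usb1, Tmem184c, Nsd3, Ces1g, Ces2g and single markers were named after their values were seen. The values of 2 of the 45 genes are not reported here singly.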

Additional observations from a re-analysis of the deposited data

How the results depend on the processing

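The counts of genes that changed with the medium stayed within 1.5 times of 15 and 14 (rises and falls in KO) and of 12 and 13 (in WT) under every alternative run. With each library left out in turn they ranged from 12 to 18 and from 10 to 14 in KO, and from 8 to 12 and from 11 to 14 in WT. The median log2 KO/WT ratio stayed between 0.56 and 0.63 in GM and between 0.63 and 0.68 in DM. In DM it was 0.678 with total counts alone as the scaling, and it ranged from 0.63 to 0.68 with each library left out, the highest being without WT DM replicate 3 (0.68). The cause was not tested. Over the 90 results of single genes in the medium contrasts, 67 kept direction and side of the threshold throughout, and none reversed. Whether replicate numbers pair the libraries was not settled. Between WT DM and WT GM, same-numbered libraries had deviations correlated at 0.09 to 0.147, and other pairs at -0.138 to 0.013. Between KO DM and WT DM these were 0.054 to 0.118 and -0.112 to 0.03. In the other contrasts same-numbered libraries ran from -0.275 to 0.327, and other pairs from -0.466 to 0.484. With the replicate block the counts were 15 and 16 in KO and 12 and 14 in WT, and the medians stayed at 0.582 and 0.636. Over all genes tested, the block raised the calls in each contrast, in WT from 2442 rises and 1963 falls to 2624 and 2162. The filter of 1 CPM in 3 libraries kept the same number of genes, 13250, and gave the same numbers of calls, so it adds no separate check. Leaving out both GM replicate 3 libraries was chosen after seeing the data. The falls in KO numbered 12 under each of the 3 other scalings, without a filter and in the 6-library fit, and 13 with DESeq2.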
